A study of Mus musculus with 12 samples.

Results

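The IGF2BP family comprises 3 paralogous mRNA-binding proteins encoded by Igf2bp1, Igf2bp2 and Igf2bp3, which were taken by their symbols from the 28643 gene symbols of the deposited expression table and followed through all 12 libraries of the series. The libraries came from round spermatids, isolated by cell sorting while the elongation blocker cycloheximide was kept in the medium, of 8-week-old male mice that were either Igf2bp3+/- (the control) or Igf2bp3-/- (the knockout). For each genotype, 3 RNA-seq libraries measured poly(A) RNA of the cell extract, and 3 RNC-seq (ribosome-nascent chain complex) libraries measured poly(A) RNA from sucrose gradient fractions holding mRNAs with 4 or more ribosomes. The knockout was made by Cas9 and a single guide RNA in C57BL/6 zygotes and carries a frameshift. The controls kept 1 intact Igf2bp3 allele, every library came from the same drug-treated and sorted cell type, and the methods state that knockout males with impaired fertility were chosen for these experiments, so that the knockout libraries do not represent all males of the genotype.

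Proteins of this family carry RNA recognition motifs followed by KH domains, bind target mRNAs largely in their 3′UTRs, and are known for changing the stability, transport and translation of those mRNAs. Igf2bp1 and Igf2bp3 are abundant in the embryo and fall silent in most adult tissues, with the gonads among the exceptions, while Igf2bp2 stays on more widely. All have been described as readers of N6-methyladenosine (m6A), the common internal methylation of mRNA. In round spermatids, haploid cells that store many mRNAs for later translation, RNA-binding proteins such as the Y-box family are known for holding mRNAs back from translation. The data ask how much of each family member these cells expressed and how its level in polysomal RNA compared with that in the extract. They also ask whether either measure of the targeted gene or its paralogues differed without IGF2BP3.

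All 3 genes lie on the minus strand of GRCm38. Igf2bp1 (ENSMUSG00000013415) spans chr11:95957163-96005940, Igf2bp2 (ENSMUSG00000033581) spans chr16:22059009-22163299 and Igf2bp3 (ENSMUSG00000029814) spans chr6:49085223-49214957. Their longest coding transcripts have 15, 16 and 15 exons. The coding sequences have 1731, 1776 and 1737 bases without the stop codon and were 68.2% to 68.9% identical in pairs. Over the whole of these transcripts, the longest run of bases shared without a mismatch was 28, between Igf2bp2 and Igf2bp3, and 20 in the other pairs. Stretches in which the paralogues cannot be told apart were thus short. On the opposite strand, exons of the protein-coding gene Malsu1 overlapped 1529 exonic bases of Igf2bp3 (18.7% of them). The strand setting used for quantification is not given in the sources used here, so fragments of the overlapped stretch could count for either gene.

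The knockout guide is shown beside its closest match in each paralogue, because the sequences tell which family members the edit could reach. The guide matched the strand opposite to the Igf2bp3 mRNA without a mismatch at chr6:49117205-49117227 (GRCm38, plus strand). According to the study the targeted stretch encodes the first KH domain. The site lies in exon 6 of 15, and Cas9 would cut after base 613 of the 1737 coding bases (35.3% of the reading frame). In the line for Igf2bp3 the capitals mark the NGG that Cas9 needs (the PAM), and in the lines for the paralogues they mark mismatches to the guide, counted from 1 at its 5′ end.
Igf2bp3: aatggctccaacaaactgggTGG
Igf2bp2: GatggcAccaacaaactgggtgg
Igf2bp1: GatggcGccCacaGCctgggcgg
The Igf2bp2 match, at chr16:22081787-22081809 (plus strand, exon 6 of 16, coding base 586 of 1776), had the same PAM and only 2 mismatches, A1G and T7A. The nearest Igf2bp1 match, at chr11:95968423-95968445 in exon 11, had 5 mismatches (A1G, T7G, A10C, A14G and A15C). Among annotated transcripts, sites next to an NGG with at most 3 mismatches occurred in 1 gene at 0 mismatches (Igf2bp3), in 0 genes at 1, in 1 gene at 2 (Igf2bp2) and in 1 gene at 3. A level in FPKM (mapped fragments scaled for transcript length and library depth) cannot show a small insertion or deletion, so editing at the Igf2bp2 site cannot be read from these values. The study's methods state that predicted off-target sites, with this one in their list, were amplified and sequenced, and those sequences were not analysed here. The study reports that it saw no off-target effect in knockout testis. By western blot it also reports unperturbed IGF2BP1 and IGF2BP2 protein there. Since FPKM cannot show such an edit, the Igf2bp3 level of a frameshifted allele does not check the genotype labels either.

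**Figure D1:**
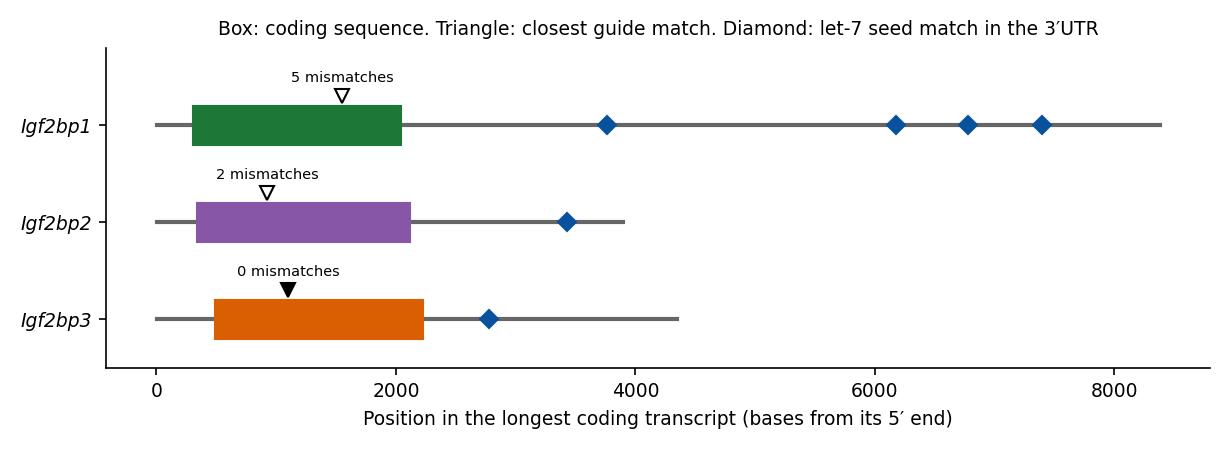
Longest coding transcript of each gene, drawn to scale in bases from its 5′ end (x axis). Boxes are coding sequences, triangles the closest match to the knockout guide next to an NGG (filled for 0 mismatches, open for 2 and 5), and diamonds the let-7 seed matches in the 3′UTR, of which Igf2bp1 has 4 and the other genes 1 each.

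Igf2bp3 was the main family member in round spermatids. In RNA-seq its level was 38.2, 38.6 and 33.4 FPKM in replicates 1 to 3 of Igf2bp3+/- and 31.7, 32.5 and 31.4 FPKM in those of Igf2bp3-/-. In RNC-seq the control replicates had 40.1, 31.4 and 43.0 FPKM and the knockout replicates 43.1, 40.6 and 43.1 FPKM. The mRNA was thus abundant in both genotypes and both assays, above 90.4% to 92.0% of all symbols by its group mean. At these levels an estimated 2957 to 6697 fragments covered it in a library, so depth limits its values least in the family.

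The paralogues were measured at the lower end of the expressed range. Igf2bp1 had 0.651, 0.474 and 0.609 FPKM in the control and 0.762, 0.776 and 0.848 FPKM in the knockout by RNA-seq. By RNC-seq the control had 0.609, 0.632 and 0.710 FPKM and the knockout 0.870, 0.949 and 0.759 FPKM. All 6 knockout values of Igf2bp1 lay above all 6 control values, as was so for 0.641% of the 18414 genes tested in both assays. Both assays drew on the extract of each mouse, so these are not 6 independent values per genotype. Igf2bp2 had 0.222, 0.349 and 0.204 FPKM in the control and 0.201, 0.238 and 0.148 FPKM in the knockout by RNA-seq. By RNC-seq the control had 0.0850, 0.244 and 0.299 FPKM and the knockout 0.634, 0.240 and 0.205 FPKM. The genotypes overlapped for Igf2bp2 in both assays, and its highest and lowest values were both RNC-seq libraries of replicate 1. An estimated 92.9 to 310.0 fragments covered Igf2bp1 in a library but only 6.04 to 58.4 covered Igf2bp2, so the Igf2bp2 values carry a large counting error.

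On this per-length scale the order of levels was the same in every library. Igf2bp3 made up 96.6% to 98.3% of the summed FPKM of the family, Igf2bp1 1.20% to 2.62% and Igf2bp2 0.208% to 1.42%. The level of Igf2bp3 was 37.0 to 81.4 times that of Igf2bp1, with a median of 52.2 over the 12 libraries. Igf2bp1 exceeded Igf2bp2 in 12 of 12 libraries, by 1.36 to 7.17 times. The ranges of the paralogues over the 12 libraries overlapped (0.474 to 0.949 against 0.0850 to 0.634 FPKM), while that of Igf2bp3 stood far from both.

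**Figure D2:**
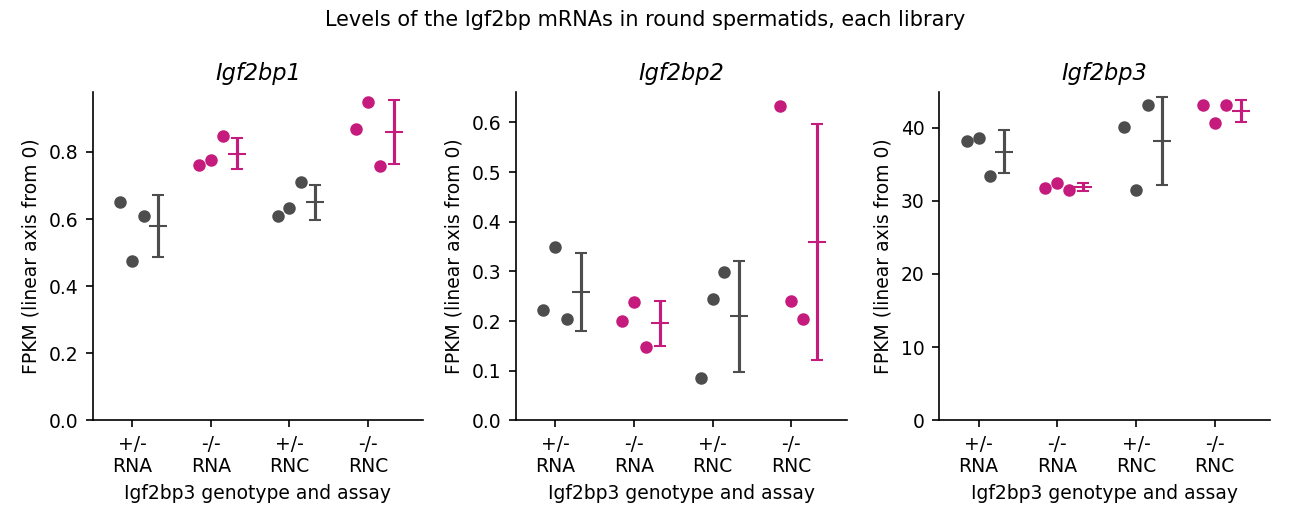
FPKM (linear axes from 0, a separate scale for each gene) of Igf2bp1, Igf2bp2 and Igf2bp3 in each of the 12 libraries, by genotype (grey +/-, magenta -/-) and assay; points are libraries, and the bar beside them is the mean ± SD (n = 3). Igf2bp3 sits at 31.4 to 43.1 FPKM throughout, and all Igf2bp1 points of the knockout lie above those of the control, as for 0.641% of genes. Both assays drew on the extract of each mouse, so the points of a genotype are not all independent.

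The sorted cells carried the markers of their label in both genotypes. The summed level of 6 round spermatid markers was 677 to 834 FPKM in Igf2bp3+/- RNA-seq and 903 to 1082 FPKM in Igf2bp3-/- RNA-seq, and 988 to 1268 against 1302 to 1457 FPKM in RNC-seq. All 6 had a log2 difference above 0 in both assays, with medians of 0.38 in RNA-seq and 0.34 in RNC-seq. Most of all genes tested also lay above 0, with medians of 0.05 and 0.13. In either assay 0 of 6 passed, where 0.256% of all genes did in RNA-seq and 0.115% in RNC-seq. By contrast, 7 spermatogonial markers summed to 3.12 to 4.90 FPKM over all libraries. Markers of interstitial and blood cells also moved with genotype. The 7 Leydig cell markers, led by the hormone gene Insl3, summed to 15.4 to 22.6 FPKM in Igf2bp3+/- and 48.6 to 55.0 FPKM in Igf2bp3-/- RNA-seq, and to 6.75 to 14.3 against 51.5 to 103 FPKM in RNC-seq, with none of the 7 at 0. Of these 7, 4 passed as higher in the knockout in RNA-seq, where 0.197% of genes did, and 1 in RNC-seq, where 0.0787% did. The 7 macrophage and blood markers summed to 7.13 to 7.61 against 14.0 to 15.8 FPKM in RNA-seq and to 11.6 to 14.7 against 16.7 to 34.0 FPKM in RNC-seq. Their top gene was the haemoglobin gene Hbb-bs, with means of 2.69 and 6.38 FPKM in RNA-seq and 8.51 and 16.5 FPKM in RNC-seq. Over all libraries 6 spermatocyte markers summed to 81.5 to 204 FPKM, 6 elongating spermatid markers to 9069 to 21961 FPKM and 5 peritubular markers to 0.783 to 2.09 FPKM. The elongating spermatid list thus summed far higher than the round spermatid list. It holds Tnp1, Tnp2, Prm1 and Prm2, whose mRNAs the study measured in sorted round spermatids by qPCR. The sum of that list therefore does not tell the 2 cell types apart. The Sertoli markers, of which Fshr was at 0 in all RNC-seq libraries, summed to at most 1.11 FPKM. Relative depth, estimated from the smallest steps in the values, was 0.375 to 0.564 of the deepest library, which was replicate 1 of Igf2bp3-/- RNA-seq. In these bulk libraries a smaller share of cells of a type and less RNA per cell cannot be told apart.

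The first comparison asked whether the genotypes differed in the amount of each family mRNA. The Igf2bp3 mRNA was 36.7 ± 2.91 FPKM (SD, n = 3) in Igf2bp3+/- RNA-seq and 31.9 ± 0.536 FPKM (SD, n = 3) in Igf2bp3-/- RNA-seq. Every knockout library lay below every control library, which was also so for 8.68% of the 20352 genes tested. The log2 difference, taken on log2(FPKM + 0.1) as knockout minus control, was -0.20 ± 0.09 (SE), with a 95% interval from -0.41 to 0.01 and an adjusted p of 0.335 (limma), and did not pass the threshold of 0.05. On the linear scale the interval runs from 0.753 to 1.01 times the control level, so most of the level of the heterozygous control remained in the knockout. The control itself kept only 1 intact allele and no wild-type library was made, so a change relative to wild type cannot be read here. In RNC-seq the Igf2bp3 level was 38.2 ± 6.04 FPKM in Igf2bp3+/- and 42.3 ± 1.44 FPKM in Igf2bp3-/- (SD, n = 3), and the groups overlapped. The log2 difference of 0.16 ± 0.20 (95% interval -0.28 to 0.60, adjusted p = 0.906) was within the spread between replicates and close to the median over the 19051 genes tested, 0.13. After each library was centred on its own median it was 0.04.

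Igf2bp1, the paralogue known for carrying Actb mRNA in migrating cells and axons, was 0.578 ± 0.0924 FPKM in Igf2bp3+/- and 0.795 ± 0.0466 FPKM in Igf2bp3-/- RNA-seq (SD, n = 3). In RNC-seq its level was 0.650 ± 0.0525 and 0.859 ± 0.0956 FPKM (SD, n = 3). The groups did not overlap in either assay, with the knockout higher, as was so for 14.1% of genes in RNA-seq, for 9.44% in RNC-seq and for 2.3% of the 18414 genes tested in both. The log2 difference in RNA-seq was 0.41 ± 0.21 (95% interval -0.06 to 0.88, adjusted p = 0.376) and in RNC-seq 0.35 ± 0.30 (95% interval -0.30 to 1.00, adjusted p = 0.851). Neither passed the test, and the intervals include no difference as well as a rise to 1.84 times the control level in RNA-seq. A contrast averaged over both assays, chosen after these values were seen, gave 0.38 ± 0.16 (95% interval 0.05 to 0.72) with an adjusted p of 0.379, above the threshold that 0.57% of genes passed. It counts all libraries as independent although both assays drew on the extract of each mouse, so its interval may be too narrow. With each library centred on its median, the Igf2bp1 differences were 0.41 in RNA-seq, 0.23 in RNC-seq and 0.32 averaged. Before centring, the medians over all genes were 0.05 in RNA-seq and 0.13 in RNC-seq. The sums of the round spermatid, the Leydig and the macrophage and blood markers were also higher in the knockout in both assays without overlap. The median log2 differences of the round spermatid markers, 0.38 and 0.34, were close to those of Igf2bp1. The part of any of these in the Igf2bp1 values was not tested.

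Igf2bp2, the paralogue best known from metabolic tissues and muscle, was 0.258 ± 0.0789 FPKM in Igf2bp3+/- and 0.196 ± 0.0457 FPKM in Igf2bp3-/- RNA-seq, and 0.209 ± 0.111 and 0.360 ± 0.238 FPKM in RNC-seq (SD, n = 3). The log2 differences were -0.27 ± 0.30 in RNA-seq (95% interval -0.95 to 0.42, adjusted p = 0.703) and 0.53 ± 0.48 in RNC-seq (95% interval -0.52 to 1.58, adjusted p = 0.862). Their signs were opposite and neither exceeded the spread between replicates. Without replicate 1 of Igf2bp3-/- the RNC-seq difference was 0.13, and without replicate 1 of Igf2bp3+/- 0.19. At this level the added 0.1 FPKM shrinks a difference, and these intervals leave room for a change in either direction.

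Read against all genes, 0 of the 3 family members passed in RNA-seq, where 0.256% of genes did, and 0 of 3 in RNC-seq, where 0.115% did. By size, the RNA-seq difference of Igf2bp1 was above that of 88.8% of genes tested and that of Igf2bp3 above that of 22.7%. At an unadjusted p under 0.05, limma called 10.4% of genes higher and 5.32% lower in RNA-seq and in RNC-seq 5.36% higher and 1.12% lower, with 0 of the 3 members in either assay.

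**Figure D3:**
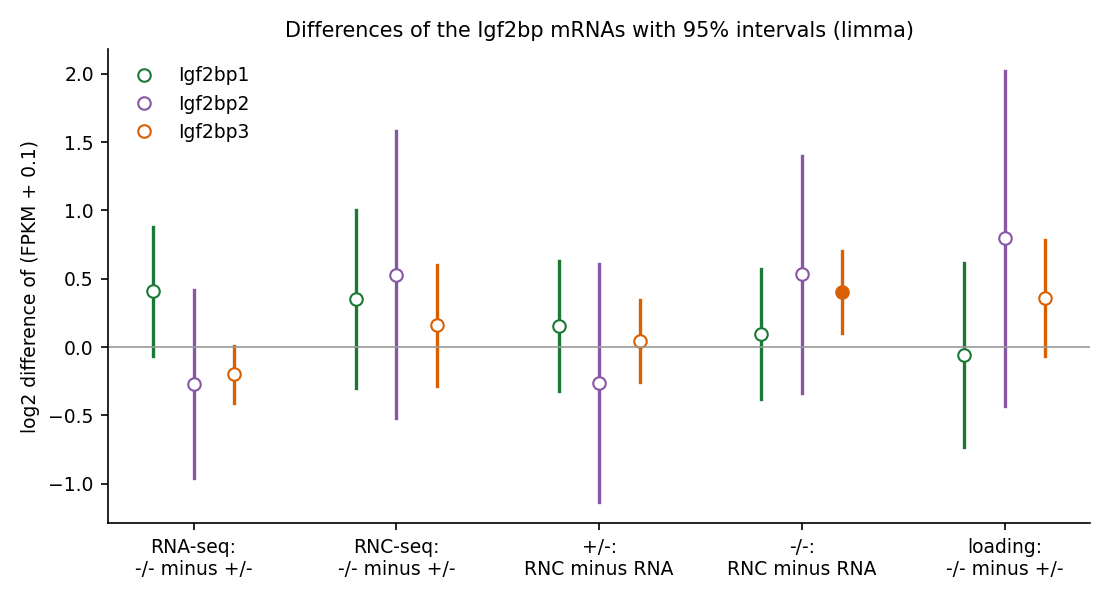
Log2 differences of (FPKM + 0.1) with 95% intervals from limma for the 3 genes (y axis) in each comparison (x axis); filled points passed an adjusted p of 0.05. Of the 15 points only Igf2bp3, RNC-seq minus RNA-seq in Igf2bp3-/-, is filled, at 0.41.

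The second comparison asked how the level of each mRNA in polysomal RNA compared with its level in the extract. It was given by RNC-seq over RNA-seq, which the study takes as translational efficiency (TE). FPKM is scaled within each library, so a ratio of 1 marks an equal relative level and not an equal amount. For Igf2bp3 the ratio of same-numbered libraries was 1.05, 0.814 and 1.29 in Igf2bp3+/- and 1.36, 1.25 and 1.37 in Igf2bp3-/-. The 3 knockout ratios sat close together while those of the control spread on both sides of 1, with the highest control ratio above the lowest knockout ratio. In Igf2bp3+/- the mean log2 ratio was 0.05 ± 0.14 (SE), with a 95% interval from -0.25 to 0.35 and an adjusted p of 0.814 (limma over 12 libraries). In Igf2bp3-/- it was 0.41 ± 0.14, with an interval from 0.11 to 0.71 and an adjusted p of 0.0454, which passed. This corresponds to a relative Igf2bp3 level 1.33 times as high in the polysome libraries as in those of the extract, and is not an amount of mRNA on polysomes.

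That call was near its threshold and common among genes: 12.5% of the 18414 genes tested passed as higher in RNC-seq in Igf2bp3-/-, and 75.1% had a lower log2 ratio than Igf2bp3. In Igf2bp3+/- 18.6% passed as higher, and 57.2% had a lower ratio than Igf2bp3. The ratio itself varied little between settings, but the call was lost without the filter on low values (adjusted p = 0.0507), with the libraries of one genotype and number treated as one mouse (0.0991), which the methods give a basis for since both assays drew on the extract of each mouse, and without replicate 1 (0.0776) or 3 (0.0541) of Igf2bp3+/- or without replicate 1 (0.176), 2 (0.0838) or 3 (0.175) of Igf2bp3-/-. With each library centred on its median it was kept, at 0.45 and an adjusted p of 0.0102.

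The difference of loading between the genotypes, tested itself, did not pass for Igf2bp3. The log2 ratio was 0.36 ± 0.20 higher in Igf2bp3-/- (95% interval -0.06 to 0.78, adjusted p = 0.716), and an exact two-sided permutation test of the 3 ratios against 3 gave p = 0.2, where 0.1 is the smallest possible. Over all genes 0.00543% passed this test (1 of 18414). The interval runs from 0.956 to 1.72 times the control loading. Without replicate 2 of Igf2bp3+/- the difference was 0.19, and with each library centred on its median 0.23. Malsu1, whose exons overlap Igf2bp3 on the other strand, had RNA-seq group means of 2.07 FPKM in the control and 2.47 FPKM in the knockout. Its own log2 ratio of RNC-seq to RNA-seq was 0.98 in Igf2bp3+/- and 0.60 in Igf2bp3-/-, and the part of the overlap in the Igf2bp3 values was not tested.

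For Igf2bp1 the ratios of same-numbered libraries were 0.936, 1.33 and 1.17 in Igf2bp3+/- and 1.14, 1.22 and 0.894 in Igf2bp3-/-. These values straddled 1 in both genotypes, and the log2 ratios of 0.15 and 0.10 did not pass (adjusted p = 0.607 and 0.787, limma). The genotype difference in loading was -0.06 ± 0.31 (95% interval -0.73 to 0.61, adjusted p = 0.965), and the exact permutation p was 0.7. The knockout mean of Igf2bp1 thus exceeded the control mean in both assays by similar amounts. The Igf2bp2 ratios ranged from 0.383 to 1.47 in Igf2bp3+/- and from 1.01 to 3.16 in Igf2bp3-/-. The log2 difference between the genotypes was 0.79 ± 0.57 (95% interval -0.43 to 2.02, adjusted p = 0.756, limma), and the exact permutation p was 0.3. It was 0.42 without replicate 1 of Igf2bp3-/- and 0.53 without replicate 1 of Igf2bp3+/-.

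**Figure D4:**
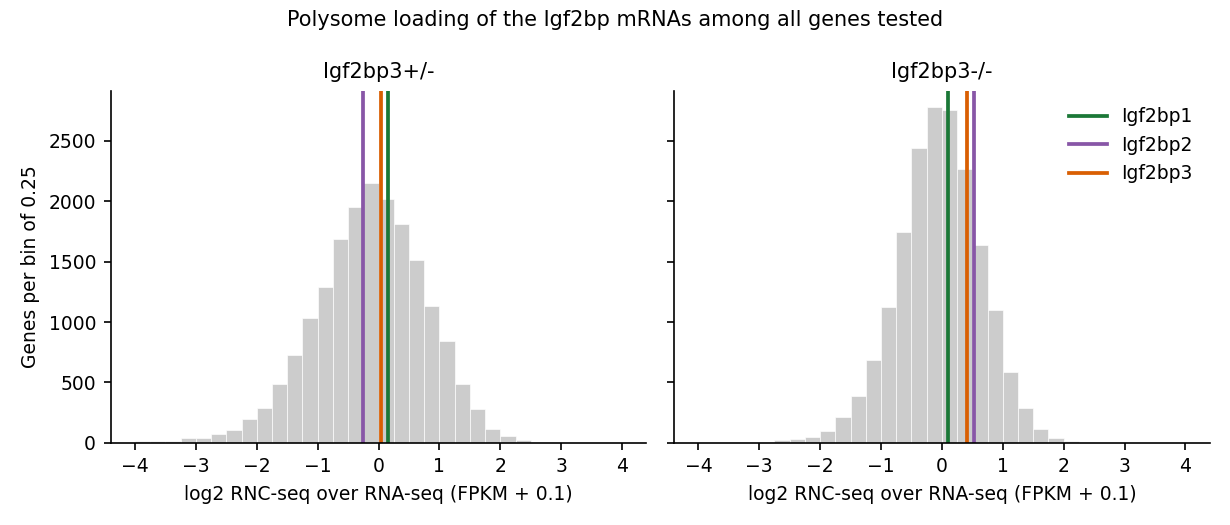
Number of genes (y axis, bins of 0.25) by log2 RNC-seq over RNA-seq of (FPKM + 0.1) (x axis) among the 18414 genes tested, in Igf2bp3+/- (left) and Igf2bp3-/- (right); vertical lines are the 3 family members. Igf2bp3 moves from 0.05, near the middle of the control distribution, to 0.41 in the knockout, a difference that did not pass its own test.

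Proteins that bind RNA together with the family were given by a list of 10 cofactors. It held the Y-box proteins Ybx1, Ybx2 and Ybx3, which package stored mRNA in germ cells, the stabilising proteins Elavl1 and Matr3 and the poly(A)-binding Pabpc1, which were described with IGF2BP on m6A mRNAs, and Hnrnpu, Syncrip, Dhx9 and Stau1, which were found in IGF2BP complexes. All 10 were tested and 0 passed a genotype difference in RNA-seq or in RNC-seq, where 0.256% and 0.115% of all genes did. Their median log2 difference was -0.0014 in RNA-seq, where all genes had 0.05, and 0.12 in RNC-seq, where all genes had 0.13. Ybx2, the germ cell Y-box protein, had a mean of 60.5 FPKM in Igf2bp3+/- and 68.0 FPKM in Igf2bp3-/- RNA-seq (log2 difference 0.17, adjusted p = 0.439, limma). In RNC-seq its mean was 51.1 and 71.1 FPKM (log2 difference 0.46, adjusted p = 0.767).

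Many cofactor mRNAs had lower values on polysomes than in the extract. In Igf2bp3+/- 6 of 10 cofactors passed as lower in RNC-seq than in RNA-seq and 0 as higher, where 25.2% of all genes passed as lower. In Igf2bp3-/- 5 of 10 passed as lower, where 14% of genes did. Their median log2 ratio was -0.94 and -0.71 in the 2 genotypes, where all genes had -0.10 and -0.04. Among them Pabpc1 went from 266 FPKM in RNA-seq to 142 FPKM in RNC-seq of Igf2bp3+/- (log2 ratio -0.91), and Matr3 from 75.8 to 36.6 FPKM (-1.08). Neither Igf2bp1, Igf2bp2 nor Igf2bp3 passed as lower in RNC-seq in either genotype.

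Other proteins described as readers of m6A were followed for comparison. The list held 8 genes, namely Ythdf1, Ythdf2 and Ythdf3, the cytoplasmic YTH proteins; Ythdc1, the nuclear one; Ythdc2, required for meiosis; and Hnrnpa2b1, Hnrnpc and Fmr1. All 8 were tested and 0 passed a genotype difference in RNA-seq or in RNC-seq, where 0.256% and 0.115% of all genes did. Their median log2 difference was -0.17 in RNA-seq and 0.12 in RNC-seq. In RNC-seq against RNA-seq 5 of 8 passed as lower in Igf2bp3+/- and 4 of 8 in Igf2bp3-/-, where 25.2% and 14% of all genes did, with 0 as higher. Ythdc1 stood at 17.6 FPKM in RNA-seq and 5.16 FPKM in RNC-seq of Igf2bp3+/- (log2 ratio -1.78), and Ythdf2 at 8.09 and 4.72 FPKM (-0.77). By level in Igf2bp3+/- RNA-seq Igf2bp3, at 36.7 FPKM, came after Hnrnpa2b1, at 60.6 FPKM, and before Hnrnpc, at 18.7 FPKM, with every YTH gene lower still.

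**Figure D5:**
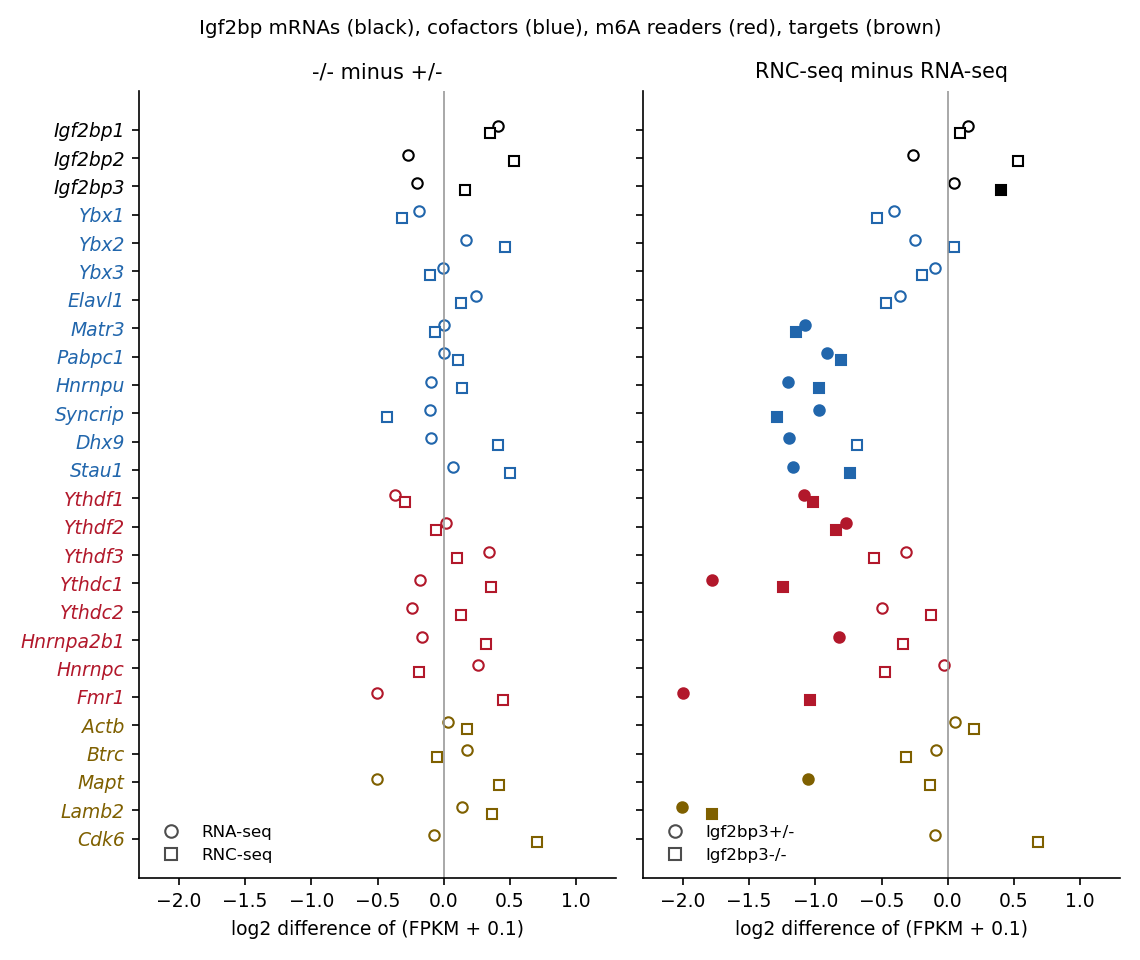
Log2 differences of (FPKM + 0.1) (x axes) for the 3 family members (black), 10 cofactors (blue), 8 other m6A readers (red) and the 5 target mRNAs tested in both assays (brown). The left panel shows the genotype difference in RNA-seq (circles) and RNC-seq (squares), with no filled point; the right panel shows RNC-seq minus RNA-seq in Igf2bp3+/- (circles) and Igf2bp3-/- (squares). Filled symbols passed an adjusted p of 0.05, and Igf2bp3 is the only one filled to the right of 0.

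mRNAs that textbooks give as family targets were followed by a list of 12, of which 10 were in the table. Many of them belong to embryonic or somatic programmes and were barely present here: the growth factor Igf2, after which the family is named, had group means of 0.00636 to 0.170 FPKM, and Myc, stabilised by Igf2bp1 in other cells, 0.0434 to 0.111 FPKM. After the filter on low values 6 were tested in RNA-seq and 5 in RNC-seq. Of these 0 passed a genotype difference, where 0.256% and 0.115% of all genes did. Actb had means of 404 and 414 FPKM in RNA-seq of Igf2bp3+/- and Igf2bp3-/- (log2 difference 0.03, adjusted p = 0.867, limma). The study treats Actb as a non-target of IGF2BP3 and used its 3′UTR as the negative control in reporter assays. Btrc, the F-box protein that turns over beta-catenin, had means of 73.7 and 83.5 FPKM (log2 difference 0.17, adjusted p = 0.440). Cdk6, a cell cycle kinase whose mRNA Igf2bp3 binds in leukaemia, had means of 1.69 and 2.75 FPKM in RNC-seq (log2 difference 0.71, adjusted p = 0.767).

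Regulators of the family were a list of 4. Lin28a and Lin28b block the maturation of let-7 miRNAs, Hmga2 is a chromatin protein that drives Igf2bp2, and Ctnnb1 encodes beta-catenin, which drives Igf2bp1. In RNA-seq 3 were tested, in RNC-seq 1, and 0 passed, where 0.256% and 0.115% of all genes did. Lin28a, Lin28b and Hmga2 had group means of at most 0.148 FPKM in any group, and Ctnnb1 1.89 and 1.52 FPKM in RNA-seq of the 2 genotypes.

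Members of the let-7 family repress mRNAs that carry a match to their seed, and family members of IGF2BP are textbook let-7 targets, so these matches are shown as a sequence feature in which the 3 genes differ. Of 11 mature let-7 family sequences in RefSeq (GRCm38.p6), 10 share the seed GAGGUAG at bases 2 to 8, shown in capitals in the first line. The other lines give its match, CTACCTC, with the bases before and after it, in the 3′UTR of the longest coding transcript; it was searched on the mRNA strand only and overlapped no other motif searched.
mmu-let-7a-5p: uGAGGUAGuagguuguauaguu
Igf2bp1, base 1715 of the 3′UTR: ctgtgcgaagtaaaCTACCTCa
Igf2bp1, base 4136: agcagtgctattaaCTACCTCa
Igf2bp1, base 4730: tataaatggatgaaCTACCTCa
Igf2bp1, base 5353: cttttggttttaatCTACCTCt
Igf2bp2, base 1313: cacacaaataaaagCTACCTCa
Igf2bp3, base 548: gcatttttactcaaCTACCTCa
Igf2bp1 held 4 matches in a 3′UTR of 6337 bases, a number reached by 12 of 21020 genes (0.0571%) and by 0.178% of genes with a 3′UTR of 80% to 120% of that length. Igf2bp2 and Igf2bp3 held 1 each, in 1784 and 2119 bases, where 12.0% and 13.3% of genes of like length held at least 1. A match is a description of the letters, and miRNAs were not measured in these poly(A) libraries.

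Genes beside the 3 loci were examined because the edit was made at the Igf2bp3 locus. Of protein-coding genes within 500 kb, 0 of 15 tested passed in RNA-seq around Igf2bp1 and 0 of 6 around Igf2bp2, where 0.256% of all genes did. Around Igf2bp3 1 of 13 passed, where 0.197% of all genes passed as higher. It was Tmem176a (chr6:48840919-48847071), a membrane protein gene known from dendritic cells and macrophages and named here after its values were seen. Its levels were 0.260, 0.169 and 0.177 FPKM in Igf2bp3+/- and 1.08, 0.893 and 0.833 FPKM in Igf2bp3-/- RNA-seq, without overlap (log2 difference 1.78, adjusted p = 0.0343, limma). In RNC-seq its log2 difference was 2.12 with an adjusted p of 0.20. Of the 13 neighbours of Igf2bp3 tested in RNA-seq, 9 had a log2 difference above 0. The lowest was that of Aoc1, at -0.85, and 0 passed as lower. In the contrast averaged over both assays 2 of 12 neighbours of Igf2bp3 passed as higher, where 0.462% of genes did, namely Tmem176a (1.95, adjusted p = 0.00098) and the adjoining Tmem176b (1.26, adjusted p = 0.0206). That contrast counts both assays of a mouse as independent samples, so these p-values may be too small. Tmem176b had RNA-seq group means of 0.502 FPKM in the control and 1.53 FPKM in the knockout and did not pass in that assay alone (log2 difference 1.43, adjusted p = 0.0999). The macrophage and blood markers moved the same way, and their part in these differences was not tested.

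Genes whose pattern over the 12 libraries was most like that of each family member were found among 12265 genes with a mean of at least 1 FPKM, by Pearson's r of log2(FPKM + 0.1). For Igf2bp1 they were R3hcc1 (0.88), Ubl7 (0.86) and Sun5 (0.86), of which Sun5 is the round spermatid nuclear envelope gene in the marker list above. For Igf2bp2 they were Cfap73 (0.88), Prr7 (0.88) and Cldn3 (0.84), and for Igf2bp3 CT009515.3 (0.91), Atg3 (0.89) and Tmem269 (0.88). All points share 4 groups of libraries, and the highest of 12265 values is high by selection, so these are given as a description only.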

How the data were processed

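The authors trimmed reads with Trim Galore (0.6.6), aligned them to GRCm38 with Hisat2 and obtained FPKM per gene with StringTie (2.1.7). The deposited table holds FPKM for 28668 symbols in 12 libraries, and 25 symbols turned into dates by spreadsheet software were left out. The annotation release and strand setting are not given in the sources used here, and the labels and the methods name different library kits and sequencers. FPKM does not give counts, so depth was estimated from the smallest steps in the values of genes with a single transcript, and fragments per gene are approximate.

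Genotypes within an assay were compared with limma (3.58.1, R 4.3.3; trended empirical Bayes, two-sided) on log2(FPKM + 0.1) over genes with a mean FPKM above 0.1, with Benjamini-Hochberg adjustment over all genes tested; loading and its difference came from 1 fit over all 12 libraries. The script was tested on simulated data. Differences on this scale understate changes of low genes. Per the methods, part of the extract of each mouse served for RNA-seq and the rest for RNC-seq. The labels number replicates but do not state that a number marks a mouse, so the fit has no pairing, the paired fit is an alternative, and p-values measure the spread between these samples. Guide and let-7 matches were sought in GENCODE M21 transcripts (GRCm38) and placed through its annotation; pairwise identities came from mafft (7.526). The family, lists and tests were chosen with earlier results of these data known. Genes named are the family, members of the fixed lists, the 3 most alike and the overlapping gene Malsu1. Neighbours were counted within 500 kb, and Tmem176a, Tmem176b and Aoc1 were named among them after their values were seen. Alternatives were pseudocounts 1 and 0.01, no filter or a filter at 1 FPKM, median centring, quantile normalization, array weights, a replicate block, 1 fit for both assays, ratios of means and leaving out each replicate. For loading and its difference the block joined libraries of 1 genotype and number. For genotype differences, also the averaged one, it joined libraries of 1 number across genotypes.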

Additional observations from a re-analysis of the deposited data

How the results depend on the processing

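Of 258 alternative values, 243 were counted as the same, 7 lost the call and 8 changed sign. The count of 243 overstates how stable the values are. Changing the filter, adding a block or fitting both assays together repeats the estimate, so only its p-value could move. Leaving out a replicate of one genotype does not change the loading estimate of the other. Ratios of means have no p-value and were judged by direction and distance, and the permutation test cannot reach 0.05. All 7 lost calls concerned the loading of Igf2bp3 in Igf2bp3-/-, whose log2 ratio was 0.41 without the filter (adjusted p = 0.0507), where more genes entered the adjustment, and 0.41 with a replicate block by mouse (adjusted p = 0.0991, limma). Leaving out 1 replicate gave 0.381 to 0.448, with an adjusted p of 0.0348 to 0.176, and fewer libraries entered each fit. Deviations of RNA-seq and RNC-seq libraries of 1 number correlated at -0.10 to 0.21, so the numbers were not taken as pairs although both assays used the extract of each mouse, and the block changed no other call of a family member. The 8 changes of sign were in values within their error. For Igf2bp2 loading in Igf2bp3+/- quantile normalization gave 0.0589, and leaving out 1 replicate gave -0.591 to 0.00429. Such leave-outs gave -0.113 to 0.219 for Igf2bp3 loading in Igf2bp3+/-, -0.176 to 0.0621 for the Igf2bp1 loading difference and, averaged over both assays, -0.0689 to 0.0147 for Igf2bp3 and -0.0771 to 0.310 for Igf2bp2. The causes were not tested. Counts of genes called moved by over 1.5 times in some settings: in RNA-seq from 52 to 31 without the filter, 84 with array weights and 4 with a block by number, and in RNC-seq from 22 to 2 without the filter, 13 with centring and 12 with quantile normalization. In a genotype comparison that block joins a knockout and a control library of 1 number, not libraries of 1 mouse. Deviations of such RNA-seq pairs correlated at -0.08 to 0.05. The averaged contrast went from 105 to 47 above 1 FPKM. A filter at 1 FPKM leaves no value for Igf2bp1 and Igf2bp2. Depth limits Igf2bp2 most.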
